A study of Mus with 438 samples.

Results

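Superior and inferior cone photoreceptors of the mouse were compared at postnatal day 21 (P21) by single-cell RNA sequencing, with 24 cells picked from superior retina and 24 from inferior retina. They were chosen by their labels alone (control genotype, P21, and the zone of origin), make up 48 of 430 single-cell RNA libraries, and were compared across all 10390 genes of the table. Both zones came from C57BL/6 mice labelled Trb2Cre-het:Ai6. These mice carry Cre at the locus of Thrb, the gene of thyroid hormone receptor beta, on 1 allele, and the green reporter Ai6, and green cells were picked singly after brief papain digestion. A cell that never switched on the driver was therefore not sampled, and there was no group without the driver. Superior and inferior cones of the same strain and genotype at P2, P8, P60 and an age labelled 2 months (2m) served as 4 other control collections, and the 2m collection also held Trb2Cre-KO:Ai6 (receptor-knockout) cones and tgNrl:gfp rods.

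Cones carry daylight vision, and each mouse cone makes M opsin, tuned to middle wavelengths, S opsin, tuned to short wavelengths, or both. In the mouse retina M opsin predominates in superior cones and S opsin in inferior cones. The thyroid hormone receptor isoform made from Thrb in cones is known to be required for M opsin and to hold back S opsin, acting with retinoid X receptors, among them Rxrg.

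Depth was alike in the zones, with 1.16e+06 to 3.30e+06 reads per superior cell (median 1.74e+06) and 1.31e+06 to 2.87e+06 per inferior cell (median 1.84e+06). Superior cells held 3217 to 4669 genes above 0 and inferior cells 2680 to 4579. The labels name no animal, so cells of a zone may share animals, each zone counted as 1 sample, and the P21 differences below carry no p-value. Values are in CPM, a library's counts scaled to a common total. A gene met the size rule where the log2 ratio of (mean CPM + 1), superior over inferior, and the difference of mean log2(CPM + 1) over cells were both at least 1 in size in the same direction. The higher zone also had to average at least 10 CPM, with over 1 CPM in at least 25% of its cells.

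S opsin RNA (Opn1sw, gene ID 12057, chromosome 6, 29376671 to 29380513, GRCm38) was low in most superior cones and high in every inferior cone. The lowest, median and highest cell held 74.0, 464 and 79328 CPM in superior cones, against 37189, 80875 and 125682 CPM in inferior cones. The superior mean was 6456 CPM and the inferior mean 81034 CPM, a log2 ratio of -3.65. The zones overlapped through 1 superior cell, number 24, which at 79328 CPM exceeded 11 inferior cells. It held 51.2% of the zone's summed S opsin, and the log2 ratio was -4.59 when the highest cell of each zone was dropped. Rods, which should lack both opsins, averaged 18.4 CPM of Opn1sw and 0.00918 CPM of Opn1mw.

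M opsin RNA (Opn1mw, gene ID 14539, chromosome X, 74127466 to 74150756) was present in all 24 superior cones within a narrow range. The lowest, median and highest superior cell held 6201, 10902 and 17508 CPM, against 1.11, 2082 and 7268 CPM in inferior cones. The means of 11413 and 2293 CPM gave a log2 ratio of 2.32. All 24 superior cells lay above the inferior median, and 2 of them lay below the highest inferior cell. M opsin was thus the narrow opsin of superior cones and the wide one of inferior cones, whereas S opsin was wide in superior cones and narrow in inferior cones.

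**Figure D1:**
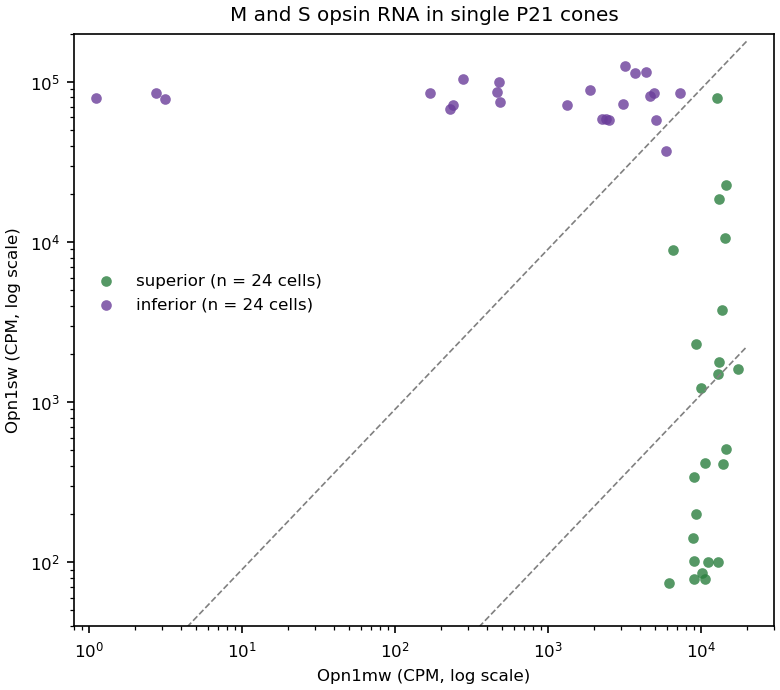
M opsin (Opn1mw, x axis) and S opsin (Opn1sw, y axis) RNA in CPM, both on log scales, with 1 point for each of 24 superior and 24 inferior P21 cones. Dashed lines mark M shares of 0.1 (upper) and 0.9 (lower). Superior cells form a column at 6201 to 17508 CPM of Opn1mw that spans 74.0 to 79328 CPM of Opn1sw, and inferior cells form a band at 37189 to 125682 CPM of Opn1sw.

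Each cell was also given an opsin class from its M share, which is Opn1mw over the sum of both opsins. Cells over 0.9 were called M, cells under 0.1 S, and the others mixed. Of superior cones, 14 of 24 were M (58.3%, exact Clopper-Pearson 95% interval 36.6 to 77.9%), 10 were mixed (41.7%) and 0 were S, where the interval reaches 14.2%. Of inferior cones, 23 of 24 were S (95.8%, 78.9 to 99.9%), 1 was mixed and 0 were M. The mixed inferior cell, number 17, had the lowest Opn1sw of its zone and the highest summed rod RNA of all 48 cells, 48092 CPM. With limits of 0.95 and 0.05, 13 superior cones were M and 19 inferior cones were S. The M share ran from 0.139 to 0.993 in superior cones (median 0.963) and up to 0.137 in inferior cones (median 0.0228). The 2 opsins together had a median of 12322 CPM in superior cones, against 82565 CPM in inferior cones.

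Across cells of a zone, the Spearman correlation between Opn1mw and Opn1sw over the 24 cells was 0.49 in superior and -0.08 in inferior cones. Between Thrb and Opn1mw it was -0.01 in superior and 0.33 in inferior cones. These values describe cells that share a zone and possibly an animal, and no test was made of them.

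Thrb itself (gene ID 21834, chromosome 14, 17659225 to 18040097) was detected in most cones of both zones, with a wide range in each. Its lowest, median and highest cell held 0, 131 and 1534 CPM in superior cones, against 0, 44.4 and 778 CPM in inferior cones. It exceeded 1 CPM in 23 of 24 superior and 18 of 24 inferior cells, and 16 superior cells lay above the inferior median. The means of 443 and 176 CPM gave a log2 ratio of 1.33. Values cover the whole gene, so the receptor isoforms, and the driver allele, could not be told apart.

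Across all genes, 5891 met the level filter, of which 735 (12.5%) were higher and 362 (6.14%) lower in superior cones by the size rule. The median log2 ratio over those 5891 genes was 0.15, so a small excess of positive ratios is the background here. Rescaling with DESeq2 size factors moved all log2 ratios by -0.11, and gave 646 genes higher and 419 lower. Of the genes past the rule, 268 higher and 123 lower genes differed by more than 4-fold. None of the 1097 genes separated the zones completely, and neither did any of all 5891 genes past the level filter. The typical gene past the rule was one found in more cells of a zone: the median higher gene exceeded 1 CPM in 10 superior and 4 inferior cells, and the median lower gene in 5 superior and 9 inferior cells.

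**Figure D2:**
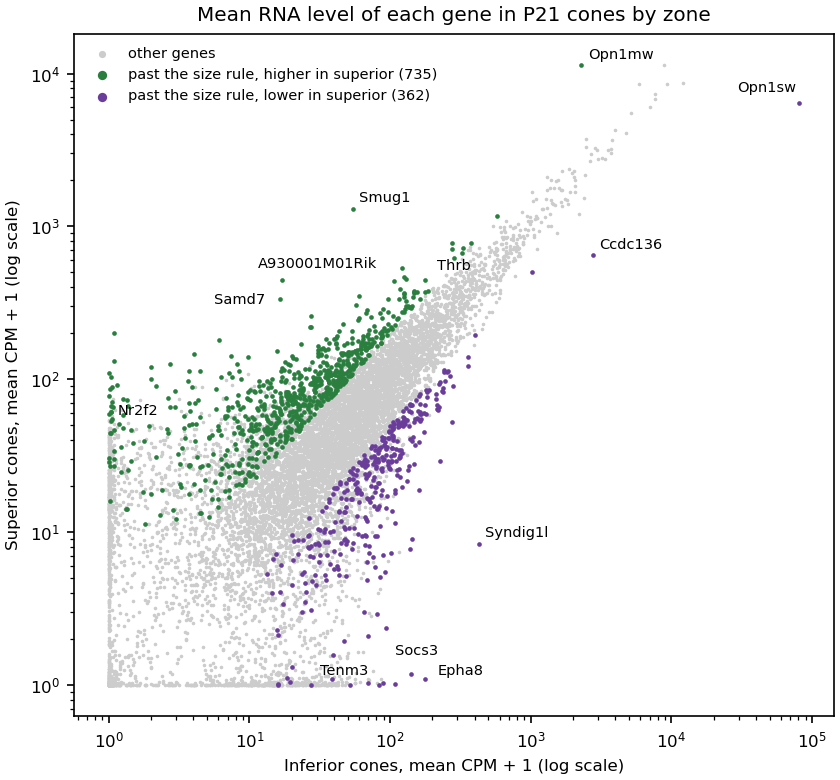
Mean CPM + 1 of each of 10390 genes in 24 superior (y axis) and 24 inferior (x axis) P21 cones, both on log scales. Green points are the 735 genes past the size rule that were higher in superior cones, purple points the 362 that were lower, and grey points all others. Opn1mw, Smug1, A930001M01Rik and Samd7 stand above the diagonal, and Opn1sw, Ccdc136 and Syndig1l below it.

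By the difference of mean log2(CPM + 1) over cells, the measure used to pick the named genes, Smug1 (7.81), A930001M01Rik (7.36), Kpna2 (5.39) and Samd7 (5.13) were well above Opn1mw (3.96). Smug1 encodes a uracil-DNA glycosylase of base excision repair. Its lowest, median and highest cell held 1.14, 1156 and 4895 CPM in superior cones, against 0, 0 and 502 CPM in inferior cones, and it exceeded 1 CPM in 24 of 24 superior and 4 of 24 inferior cells. Means were 1306 and 53.5 CPM (log2 ratio 4.59), and the zones overlapped through a few low superior and a few high inferior cells. A930001M01Rik, a transcript with no role given in the sources used here, averaged 443 CPM in superior cones, against 16.2 CPM in inferior cones (log2 ratio 4.69), again with 24 superior and 4 inferior cells over 1 CPM. Without the highest cell of each zone its log2 ratio was 5.74.

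Samd7, a Polycomb-associated repressor of photoreceptor genes that is also on the rod list, was found in 17 superior and 2 inferior cells. Its median was 326 CPM in superior cones and 0 CPM in inferior cones, with means of 332 and 15.6 CPM (log2 ratio 4.33, or 7.06 without the highest cell of each zone). Kpna2, an importin alpha that carries proteins into the nucleus, was in all 24 superior cells at 115 to 1775 CPM, against 12 inferior cells over 1 CPM. Its highest inferior cell, at 2242 CPM, exceeded every superior cell, and the means were 781 and 275 CPM (log2 ratio 1.50).

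Aldoc, the brain-type aldolase of glycolysis, had a median of 402 CPM in superior cones and 0 CPM in inferior cones, with 20 and 11 cells over 1 CPM and a log2 ratio of 2.03. Chrnb4, a nicotinic acetylcholine receptor subunit, averaged 351 CPM in superior and 59.4 CPM in inferior cones (15 and 4 cells, log2 ratio 2.54, or 3.39 without the highest cell of each zone). Mgat1, an early enzyme of N-glycan branching, Stard7, a lipid transfer protein, and Hars2, which charges histidine tRNA in mitochondria, had log2 ratios of 1.72, 1.46 and 3.03. Rragc, a GTPase that recruits mTORC1 to lysosomes, had 2.06, and Klhdc2, a substrate receptor of a ubiquitin ligase, 1.48 (2.26 without the highest cell of each zone). The log2 ratio of Stard7 was 2.06 without superior cell 24 and inferior cell 17.

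1190002N15Rik was an on-off case at this depth, with 12 of 24 superior cells over 1 CPM, up to 1091 CPM, and 0 inferior cells. Its 9141 superior and 4 inferior reads, over 4.29e+07 and 4.51e+07 reads in all, differed 2400-fold, with an exact interval of 937 to 8812 that covers counting error only. Intervals of Rragc and Hars2 overlap those of another gene of the table, and strand was not stated for the counting, so part of their reads could belong to the neighbour.

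By the same measure Syndig1l (-7.07) and Opn1sw (-6.61) were the lowest named genes in superior cones. Syndig1l encodes a relative of a membrane protein that promotes synapse formation. Its lowest, median and highest cell held 0, 0 and 176 CPM in superior cones, against 0, 511 and 1081 CPM in inferior cones. It exceeded 1 CPM in 2 superior and 21 inferior cells, with means of 7.41 and 425 CPM (log2 ratio -5.66). The zones overlapped through 3 inferior cells at 0 and 1 high superior cell, and the log2 ratio was -8.51 without the highest cell of each zone. Ccdc136, the neighbour of Opn1sw on chromosome 6 (29396574 to 29426995), held 0, 589 and 2797 CPM (lowest, median, highest) in superior cones and 246, 2576 and 6114 CPM in inferior cones (log2 ratio -2.09). In superior cones it went with Opn1sw across cells (Spearman correlation 0.67), and in inferior cones it was -0.33.

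By the ratio of means the lowest named genes were Epha8 (-7.34), Socs3 (-6.91) and Tenm3 (-6.43). Tenm3, a teneurin known for wiring visual circuits, had 1 read in all superior cells, against 3794 reads in inferior cells, of which 11 of 24 exceeded 1 CPM. The ratio was 3612-fold, and its exact counting interval, 648 to 142707, shows how little a single read fixes. Epha8, an Eph receptor of axon guidance, had means of 0.0921 and 176 CPM in superior and inferior cones (1 and 9 cells over 1 CPM). Socs3, a feedback inhibitor of cytokine signalling, had 0.182 and 141 CPM (1 and 10 cells). Their read sums were 1691-fold (660 to 6207) and 890-fold (432 to 2215) lower in superior cones.

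Mir124-2hg, host transcript of a neuronal microRNA, averaged 51.6 CPM in superior and 272 CPM in inferior cones (log2 ratio -2.38). BE949265 and BB114814, which carry no role in the sources used here, had log2 ratios of -2.96 and -2.62. One superior cell held 99.2% of the superior BB114814 sum, and without the highest cell of each zone its log2 ratio was -6.39. Yipf5, a Golgi membrane protein, Gtpbp1, a GTP-binding protein, Ralyl, an RNA-binding protein, and Rab27b, a GTPase of secretory vesicles, ranged from -1.37 to -1.95. Without the highest cell of each zone, the log2 ratio was -3.21 for Mir124-2hg, -2.22 for Yipf5 and -2.11 for Gtpbp1. Cxx1c (63.3 and 215 CPM in superior and inferior cones, log2 ratio -1.75) has close copies in its family, and Lrtm1 (-1.41) lies within the interval of Cacna2d3, so both values are uncertain.

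**Figure D3:**
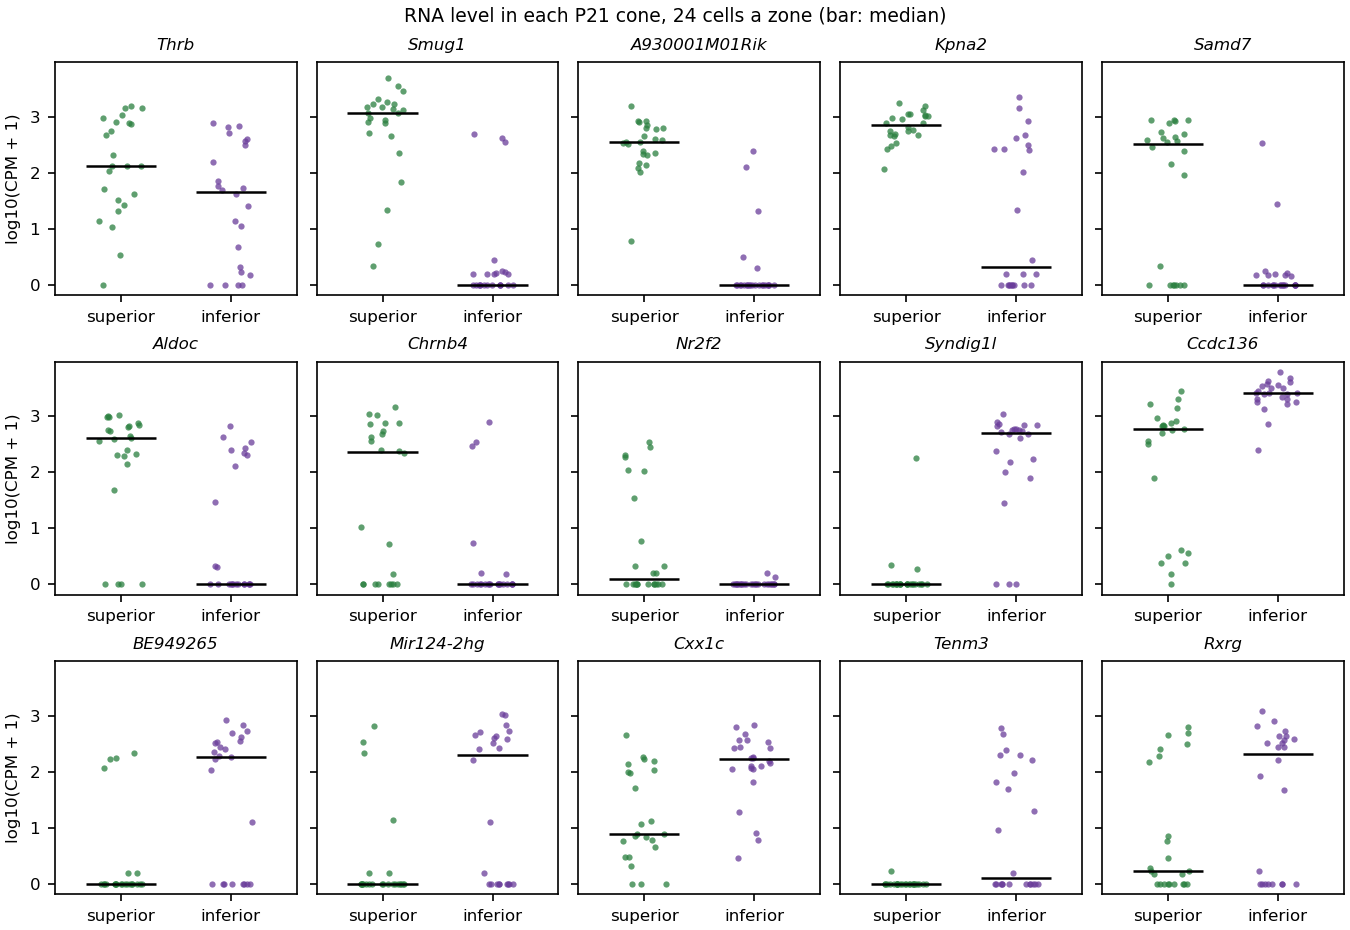
RNA level in each P21 cone for 15 genes, as log10(CPM + 1) on the y axis, with superior cells (green) left of inferior cells (purple), 24 cells a zone, and a bar at the median. Smug1, A930001M01Rik and Kpna2 are in nearly all superior cells, while Nr2f2, Tenm3 and Rxrg are found in only part of the zone where they are higher.

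Superior cell 24, the one with an inferior level of S opsin, was mixed in the other named genes. It held 2856 CPM of Smug1 (2 superior cells were higher), 871 CPM of Samd7 (1 higher), 12787 CPM of Opn1mw and 0 CPM of Syndig1l. Its Ccdc136, at 2797 CPM, was the highest of the superior cells and above the inferior median. It was among the 3, 7, 8 and 15 of 24 superior cells with 0 CPM of Klhdc2, Hars2, Rragc and Lhx4, so these zeros do not set it apart. Its Kpna2, at 260 CPM, was below 22 other superior cells, and its Syt1, at 440 CPM, was the lowest of the zone.

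The transcription factors and hormone pathway genes split in direction. Of 22 photoreceptor transcription factors, 18 were measured and 15 met the level filter. Of these, 4 were higher (Thrb, Samd7, Lhx4, Nr2f2) and 2 lower (Rxrg, Samd11) in superior cones, where 12.5% and 6.14% of all genes past the filter were, with a median log2 ratio of 0.21. Lhx4, a LIM-homeodomain factor of photoreceptors and bipolar cells, averaged 113 CPM in superior and 3.48 CPM in inferior cones (9 and 3 cells, log2 ratio 4.67). Samd11, a partner of Samd7 in photoreceptors, went the other way, at 2.47 and 23.7 CPM (2 and 7 cells, log2 ratio -2.83), and its interval overlaps that of Noc2l. The general photoreceptor factor Crx and the factors Neurod1, Rora and Mef2d were close in the zones, with log2 ratios between -0.26 and 0.39.

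Of 24 thyroid hormone pathway genes, 16 were measured and 11 met the level filter, with 2 higher (Thrb, Rxrb) and 2 lower (Rxrg, Ncoa2) in superior cones, against shares of 12.5% and 6.14% over all genes, and a median log2 ratio of 0.48. Rxrg, the retinoid X receptor of cones, held medians of 0.675 CPM in superior cones and 217 CPM in inferior cones, with 10 and 15 cells over 1 CPM and means of 104 and 264 CPM (log2 ratio -1.34). Rxrb, the broadly expressed relative, had 39.4 and 13.2 CPM (6 and 3 cells, log2 ratio 1.50, or 2.87 without the highest cell of each zone). Ncoa2, a nuclear receptor coactivator, had 1.89 and 79.2 CPM (3 and 7 cells, log2 ratio -4.80). Hormone-responsive genes did not pass, with log2 ratios of 0.65 for Klf9, 1.65 for Hr and 0.77 for Dbp, and Thra, the other receptor gene, had -0.63. The retinoid signalling list had 10 of 20 genes measured and 3 past the filter, and those past the rule were again Rxrb and Rxrg.

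Genes that pattern the dorsal and ventral retina were sparse. Of 14 dorsal genes 4 were measured, and Nr2f2, a nuclear receptor of dorsal retina, met the rule, in 10 of 24 superior and 0 of 24 inferior cells (52.5 and 0.0375 CPM). Its 2465 superior and 2 inferior reads gave a 1295-fold ratio (exact interval 358 to 10696, counting error only). Bambi was in 2 superior and 0 inferior cells, Efnb1 had 1 read in all, and Aldh1a1 had 0 reads in both zones, where 3 reads over a zone would be 0.0699 CPM in superior and 0.0665 CPM in inferior cones, summed over cells. Of 11 ventral genes 4 were measured and 0 met the rule, each being in under 25% of cells. Vax2, a homeodomain factor of ventral retina, had 0 reads in all 24 superior cells and 35.2 CPM on average in inferior cones, in 5 of 24 cells. Against 3 reads over the superior zone its read sum was at least 483-fold lower in superior cones, which covers counting error only. By cells, the exact interval for 0 of 24 superior cells reaches 14.2%. That for the 20.8% of inferior cells runs from 7.13 to 42.2%, so the intervals overlap. Vax2os, whose interval overlaps Vax2, had 0 superior reads and 3 inferior cells over 1 CPM. Its inferior mean was 34.5 CPM, and 9.20 CPM without cell 17, which held 616 CPM. Ephb2 and Chrdl1 were in 1 or 2 cells of a zone, and their means went the other way from those of Vax2 and Vax2os. Ephb2 averaged 10.4 CPM in superior and 4.16 CPM in inferior cones (log2 ratio 1.14), and Chrdl1 33.4 and 0.0639 CPM (5.02). The highest superior cell held 99.4% of the superior Ephb2 sum and 100% of that of Chrdl1.

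The phototransduction machinery beyond the opsins was close in the zones. Of 24 genes on the cone phototransduction list 23 were measured, all past the level filter, with 2 higher (Opn1mw, Slc24a2) and 2 lower (Opn1sw, Guca1b), against 12.5% and 6.14% of all genes, and a median log2 ratio of -0.07, against 0.15 over all genes. The cone transducin subunits Gnat2 and Gnb3, the phosphodiesterase subunits Pde6c and Pde6h and recoverin (Rcvrn) had log2 ratios of -0.06, -0.24, -0.16, -0.20 and -0.03. Cone arrestin, Arr3, averaged 8499.6 CPM in superior and 5846 CPM in inferior cones (log2 ratio 0.54). Guca1b, an activator of the guanylate cyclase that restores cGMP after light, had medians of 62.2 CPM in superior cones and 279 CPM in inferior cones (log2 ratio -1.54), and its relative Guca1a had a log2 ratio of -0.66. Slc24a2, the cone sodium-calcium exchanger, averaged 251 and 86.7 CPM (17 and 13 cells, log2 ratio 1.53).

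**Figure D4:**
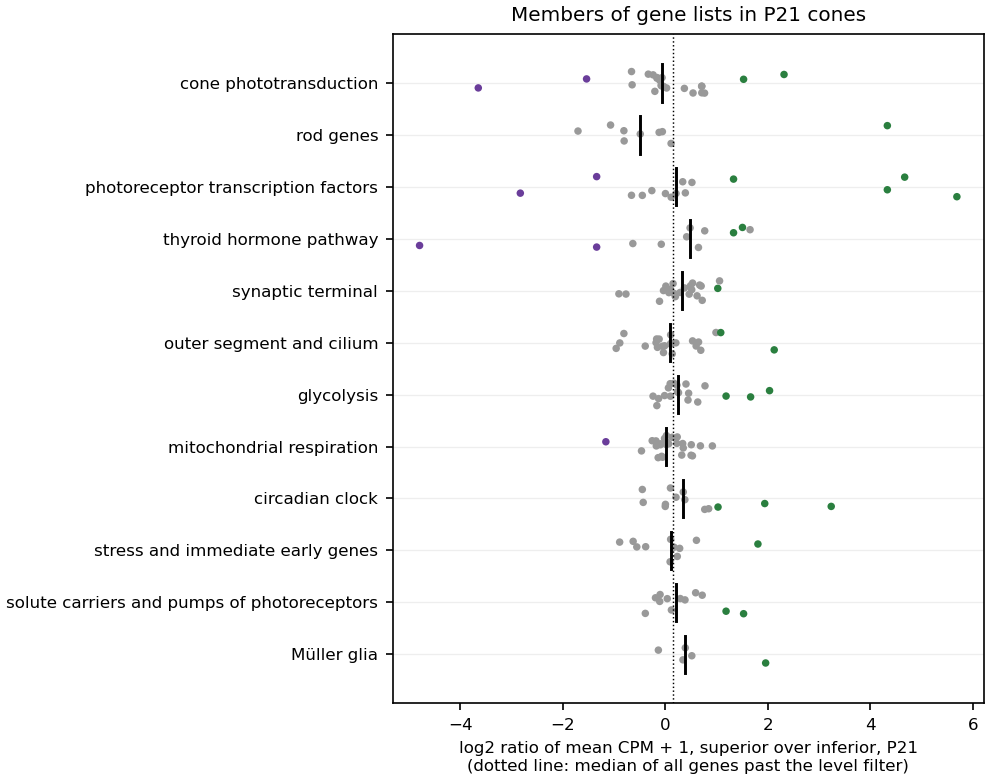
Log2 ratio of mean CPM + 1, superior over inferior, at P21 (x axis) for each member past the level filter of 12 gene lists (rows). Green and purple points passed the size rule as higher or lower in superior cones, black bars are list medians, and the dotted line is the median of all 5891 genes, 0.15. Medians lie between -0.49 (rod genes) and 0.48 (thyroid hormone pathway).

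Synapse, outer segment and energy genes passed the rule at few members, and the counts below stand beside all-gene shares of 12.5% higher and 6.14% lower. The median log2 ratio over all genes past the filter was 0.15, and the share of positive ratios among them was not counted. Of 26 synaptic terminal genes measured, 22 met the filter, 18 had positive log2 ratios (median 0.33) and only Syt1, the calcium sensor of transmitter release, met the rule. Syt1 exceeded 1 CPM in all cells, at 440, 973 and 2488 CPM (lowest, median, highest) in superior cones and 50.4, 532 and 1888 CPM in inferior cones (log2 ratio 1.02). That ratio is at the edge of the rule. It was 0.92 with CPM rescaled without opsin reads and 0.91 without the 6 cells of each zone with the highest rod list sums. Of 27 outer segment and cilium genes measured, Impg1, a proteoglycan of the matrix between photoreceptors (533 and 121 CPM in superior and inferior cones, log2 ratio 2.12), and Bbs9, a ciliary transport protein (1.08), were higher, with a list median of 0.10. The sign of Bbs9 turned, to -0.61, without the 6 cells of each zone with the highest rod list sums.

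All 19 glycolysis genes met the filter, and 15 had positive log2 ratios. Their median was 0.24, against 0.15 over all genes, whose share of positive ratios was not counted. Aldoc, Pfkm (1.18) and Pfkp (1.66), the last 2 being phosphofructokinase subunits, met the rule. Inferior cell 17 held 98.8% of the inferior Pfkp sum, and the log2 ratio was 6.16 without it and superior cell 24. Intervals of Pfkm and Pfkp overlap a neighbouring gene of the table. Of 27 mitochondrial respiration genes, Ndufs3 (-1.16), a complex I subunit, met the rule, and the list median was 0.02. Of 16 circadian clock genes measured, 13 met the filter and 3 were higher, against 12.5% of all genes: Cry2, a clock repressor, with means of 257 CPM in superior cones and 26.4 CPM in inferior cones (12 and 9 cells, log2 ratio 3.24, or 4.90 without the highest cell of each zone), and the PAR bZIP factors Tef (1.03) and Hlf (1.94). The time of day of collection is not given in the labels, so it and the zone cannot be told apart for these genes. Tef was at the edge of the rule. Its log2 ratio was 0.94 with CPM rescaled without opsin reads and 0.65 without the 6 cells of each zone with the highest rod list sums. Egr1 (1.81, 8 and 2 cells), an immediate early gene, was the 1 of 13 measured stress genes past the rule, and Slc12a5 (1.18), a chloride extruder of neurons, was the other solute carrier besides Slc24a2. Tubb3 (2.00, or 2.59 without the highest cell of each zone, 7 and 2 cells) was the 1 of 7 measured immature neuron genes past it.

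Markers of other cell types were low, with exceptions. The 16 measured rod genes summed to 8056 to 19247 CPM in superior cells (median 14579, mean 14498). In inferior cells they summed to 10226 to 48092 CPM (median 17838, mean 18831). Cones also express several of them. Sag averaged 8667 CPM in superior and 12168.5 CPM in inferior cones, and Pde6g 2779 and 3024.5 CPM, both in all cells. The sum thus ranked cells largely by genes that cones express, and cannot by itself separate rod RNA from cone RNA. Gnat1, the rod transducin subunit and a defining rod gene, was over 1 CPM in 10 superior and 3 inferior cells. Without the 6 cells of each zone with the highest sums, Opn1sw had a log2 ratio of -4.37, and 526 of the 735 higher and 248 of the 362 lower genes still met the rule. The log2 ratio was then 2.36 for Stard7, 1.84 for Pfkm, 4.68 for Pfkp, 1.49 for Impg1, -1.82 for BB114814, -1.27 for Ralyl and -4.09 for Ncoa2. The 9 measured Müller glia markers summed to 373 to 7098 CPM in superior cones (median 1254, mean 1567), against 57.4 to 2245 CPM in inferior cones (median 1282, mean 1241). Most of it was Clu and Car2, while Vim was at 0 in every cell and Apoe, a lipid carrier made by glia, met the rule (207 and 52.6 CPM, 12 and 6 cells, log2 ratio 1.96).

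Bipolar cell markers were at or near 0 except for Cabp5 (96.6 and 245 CPM in superior and inferior cones, log2 ratio -1.33). Amacrine markers had a summed median of 203 CPM in superior cones, against 24.8 CPM in inferior cones, through Slc6a9 and Meis2, with Tfap2b near 0. Horizontal, ganglion, microglial and endothelial lists had medians of 0 in both zones and no member past the filter, and no pigment epithelium marker was in the table. The part of Müller glia and amacrine RNA in the zone differences was not tested. Of the sex-linked genes only Xist was in the table, over 1 CPM in 0 cells of either zone.

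The other control collections show how far the P21 differences recur, with the 2m libraries sequenced more deeply (medians of 1.26e+07 reads in superior and 1.36e+07 in inferior cells). At P8, P60 and 2m the same size rule called 8.16%, 10.3% and 8.94% of genes past the filter as higher and 5.85%, 5.39% and 0.916% as lower in superior cones. Of the 735 higher genes at P21, 71 met the rule at P8 (9.66% of these, 12.2% of the P8 genes), 86 at P60 (11.7% and 13.7%) and 66 at 2m (8.98% and 13.5%). Over all 5891 P21 genes those shares were 6.14%, 8.01% and 6.37%. Of the 362 lower genes, 30 met it at P8 (8.29% and 7.19%), 38 at P60 (10.5% and 11.6%) and 10 at 2m (2.76% and 20%), against 4.31%, 3.82% and 0.645% of all 5891. Most of the genes past the rule at P21 therefore did not pass it in another collection. At P2, 34 of the 735 and 19 of the 362 met it (4.63% and 5.25%), against 2.89% and 4.29% of all 5891. By sign alone, 47.2%, 51.6%, 60.5% and 59.7% of the 735 were higher in superior cones at P2, P8, P60 and 2m. Over all 5891 genes those shares were 50.3%, 53.3%, 57.5% and 55.6%. Of the 362, 49.7%, 52.8%, 49.7% and 49.4% were lower, against 49.4%, 46.6%, 42.5% and 44.4% of all 5891.

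The genes that met the rule at P21, P60 and 2m were 15 higher and 9 lower in superior cones. These were 2.04% of the 735 higher and 2.49% of the 362 lower genes. Over all 5891 P21 genes, 0.866% and 0.238% met the rule at both P60 and 2m in those directions. The labels do not state whether P60 and 2m are separate ages or separate batches of the same age. The 15 were Opn1mw, Kpna2, Smug1, A930001M01Rik, Chrnb4, Samd7, Lhx4, Ptp4a2, Trp53inp2, Dirc2, Stom, Marcks, Lemd2, Mrps23 and Cap2. The 9 were Opn1sw, Syndig1l, Socs3, Cxx1c, BE949265, BB114814, Cabp5, Ssbp4 and 4933416I08Rik. Smug1, A930001M01Rik and Mrps23 met the rule at P8 too, as did Opn1sw and Syndig1l. The share over all genes that met it at P8, P60 and 2m together was not counted. The genes listed here that lie outside the rule for named genes were picked after their values were seen.

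**Figure D5:**
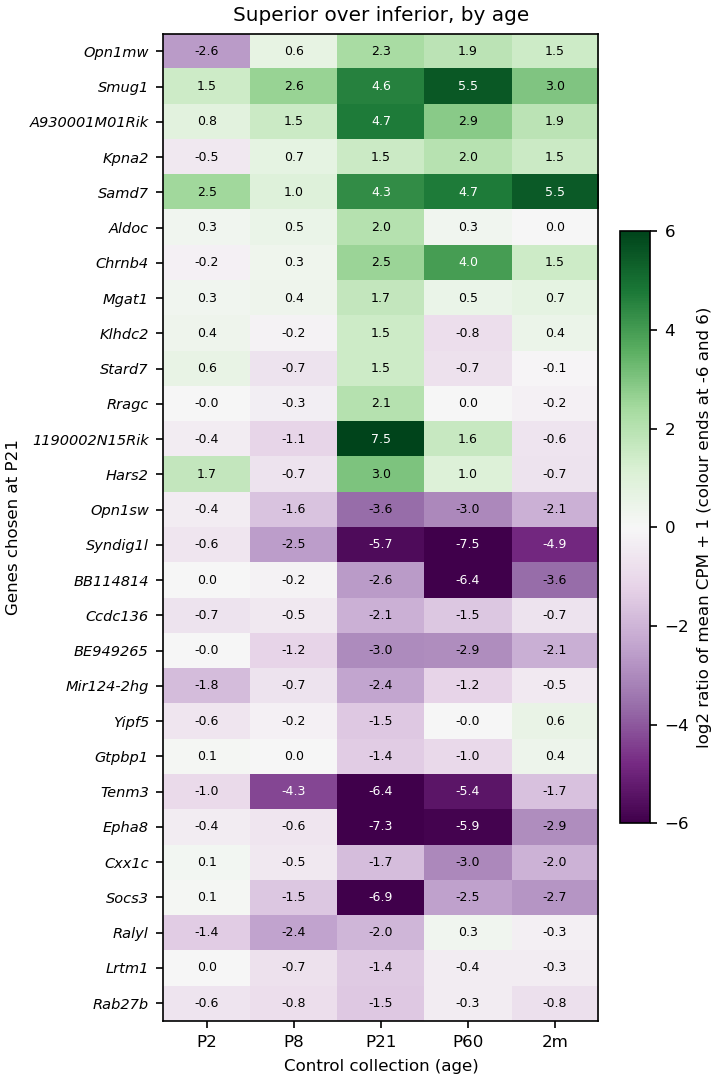
Log2 ratio of mean CPM + 1, superior over inferior, in the 5 control collections by age (columns), for genes with the largest differences at P21 in each direction (rows). Green is higher and purple lower in superior cones. Smug1, Samd7, Opn1sw and Syndig1l keep their direction in all 5 collections, whereas Rragc, Aldoc and 1190002N15Rik stand out at P21.

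A test that did not use P21 was made on the 4 other collections, as limma on 8 zone values with the collection as a block. It called 0 of 10132 genes (0%) at an adjusted p of 0.05 or less, with 591 at an unadjusted p under 0.05. EdgeR on recovered reads called 0 (352 at an unadjusted p under 0.05), and DESeq2 called 125 higher and 116 lower (1349). Fitted log2 differences, superior minus inferior, were 3.14 for Smug1 (SE 0.55), 3.40 for Samd7 (SE 0.68), 1.77 for A930001M01Rik (SE 0.32), -1.78 for Opn1sw (SE 0.35) and -3.88 for Syndig1l (SE 0.96), each with a limma adjusted p of 0.834. All 5 passed when log values were averaged over cells, with limma adjusted p of 2.01e-04, 0.0104, 0.0441, 0.00337 and 0.00605 in that order. Thrb differed by 0.34 (SE 0.18) and Opn1mw by 0.35 (SE 0.65), with limma adjusted p of 0.834 and 0.945. The Opn1mw estimate took in P2, where the log2 ratio was -2.61 from means of 0 CPM superior and 5.11 CPM inferior. At P8, P60 and 2m the log2 ratio of Opn1mw was 0.61, 1.90 and 1.49.

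Whether the zone difference at P21 departed from that at the other ages was tested with limma on the 5 differences. It called 0 of 10136 genes (0%), with 1161 at an unadjusted p under 0.05 and a smallest adjusted p of 0.114, and no other tool was run. The P21 difference minus the mean of the others was -1.87 for Opn1sw (SE 0.78, limma adjusted p = 0.421) and 0.99 for Thrb (SE 0.40, adjusted p = 0.404). Among genes whose difference stood out at P21, 1190002N15Rik exceeded the others by 7.67 (SE 1.04, adjusted p = 0.134), Cry2 by 3.37 (SE 0.51, adjusted p = 0.148) and Rragc by 2.19 (SE 0.41, adjusted p = 0.181). For Aldoc the excess was 1.77 (SE 0.37, adjusted p = 0.204), and for Socs3 the difference was -5.25 (SE 1.08, adjusted p = 0.195). With 3 residual degrees of freedom before moderation and 1 collection on the P21 side, none of these is called particular to P21.

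In receptor-knockout cones of 2m, with 1 group per zone and no test, 40 of the 53 named genes past the P21 rule had the sign they had at P21, and 13 had the opposite sign. The share of matching signs over all genes was not counted, so these counts have no background beside them. The log2 ratio was 2.71 for Smug1, 2.82 for Samd7 (from knockout means of 6.09 CPM superior and 0.00772 CPM inferior, where the 2m controls averaged 169 CPM superior and 2.87 CPM inferior), 4.34 for Nr2f2, -6.33 for Syndig1l and -4.70 for Tenm3. That of Opn1sw was -0.04, with means of 71654 CPM in superior knockout cones and 73742 CPM in inferior ones. Cxx1c and Cabp5 had log2 ratios of 0.37 and 0.25 in knockout cones, against -2.04 and -2.56 in 2m controls.

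Genomic regions deposited with the series give the surroundings of these genes, as 4590 regions bound by the tagged receptor in E18 retina (ChAP-seq) and 5049 induced and 4072 suppressed accessible regions of P30 cones (ATAC-seq). The ATAC-seq samples are labelled control and knockout and name no zone, so these lists are not a comparison of zones. A receptor-bound region lay within 50 kb of 41.9% of the higher, 42.2% of the lower and 42.2% of all P21 genes past the filter that could be placed. For induced regions these shares were 38.6%, 34.6% and 38%, and for suppressed regions 14.7%, 14.7% and 12.8%, so the P21 genes were close to the background in all 3 lists. Opn1sw had 3 bound regions within 50 kb, 1 of them over an edge of the gene interval at 29380490 to 29380789, with 10 suppressed regions and 1 induced region. Opn1mw had 7 induced regions, 4 of them inside its interval or overlapping its edge, such as X, 74127180 to 74127813. Smug1 had 1 bound and 6 induced regions, Samd7 2 of each kind, and Syndig1l 2 bound and 3 induced regions, with 1 bound region inside the gene (chromosome 12, 84697324 to 84697623).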

How the data were processed

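Single-cell RNA values were deposited by the authors as one table of CPM (counts scaled to a common total of reads per library) with 10390 genes and 430 libraries. Per the labels' protocols, cDNA was made with SMART-Seq v4 and libraries with ThruPLEX, from 1 cell each, with no molecular identifiers. Per the submitters' processing notes, the tools were bcl2fastq 2, STAR 2.7.3a on GRCm38/mm10 and, for regions, MACS2 2.2.7.1. For the counting tool, annotation, strand setting and gene filter, the entry is: not given in the sources used here. The region lists were deposited by the authors, the ChAP-seq list with a p-value column and the ATAC-seq lists with a score column that holds 0 throughout, and their positions alone were used.

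All deposited CPM values above 0 (100%) were whole multiples of the value of 1 read within a tolerance of 0.1 reads, so reads and depth were recovered from them. For 13 genes a spreadsheet had turned the symbol into a number, and the gene ID gave the name. RefSeq intervals of GRCm38.p6 placed genes, with 10146 matched by gene ID. No cell was removed and no doublet caller was run on hand-picked cells. In the P60 superior group, 2 libraries that held nearly the same values were averaged and counted as 1 cell. No such pair was seen at P21.

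At P21 the size rule was used without a test, with a pseudocount of 1 CPM, because the labels name no animal. For the other control collections, log2(mean CPM + 1) was tested with limma 3.58.1 in R 4.3.3, with a trended prior and blocks for the collection. Genes averaging 5 CPM or more entered, p-values were adjusted after Benjamini and Hochberg across them all, and the threshold was 0.05. EdgeR 4.0.16 and DESeq2 1.42.0 on recovered reads were alternatives, and the limma fit was tested on simulated data. Replicates there are groups of cells, and p-values measure the spread between collections. Intervals of shares are exact Clopper-Pearson and those of read sums exact Poisson or binomial at 95%, and they and the limit of 3 reads for a count of 0 cover counting error only.

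Named genes are Opn1sw, Opn1mw and Thrb, each member of the gene lists past the P21 size rule, the dorsal and ventral members, and the 15 genes in each direction with the largest difference of mean log2(CPM + 1). The members, the 24 lists and the rules were chosen with earlier results of these data known. Alternatives covered the pseudocount, averaging, scaling, filters, thinning to 1 depth, and the cells or collections used. Values of list members that are not named by the rule are given to describe their list. Some genes that these rules take in are not reported here.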

Additional observations from a re-analysis of the deposited data

Results flagged for a closer look

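Among the 53 named genes past the P21 size rule, Apoe had a zone difference at P21 that was opposite in sign to that of each of the 4 other control collections. Its log2 ratio, superior over inferior, was -0.11 at P2, -0.91 at P8, 1.96 at P21, -0.13 at P60 and -0.77 at 2m. At P21 the highest cell held 2014 CPM in superior cones and 361 CPM in inferior cones, with 12 and 6 cells over 1 CPM, and the highest superior cell held 40.5% of the superior sum. The limma test of the P21 difference against the mean of the other 4 gave 2.43 (SE 0.53, unadjusted p = 0.00198, limma adjusted p = 0.204), which did not pass. Apoe is also on the list of Müller glia markers, whose sum over 9 measured genes ran from 373 to 7098 CPM in superior cones (median 1254, mean 1567) and from 57.4 to 2245 CPM in inferior cones (median 1282, mean 1241). Slc1a3 and Rlbp1, markers from that list, were each over 1 CPM in 1 superior cell, at 1424 and 963 CPM, and their highest inferior cells held 531 and 277 CPM. The part of glial RNA in the Apoe difference was not tested.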

How the results depend on the processing

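The P21 counts of 735 higher and 362 lower genes were 283 and 105 with a pseudocount of 10 CPM, 1422 and 594 when only log values averaged over cells were used, and 264 and 102 when at least 50% of cells had to exceed 1 CPM. Other settings stayed within 1.5 times of the main counts. They gave 646 and 419 with DESeq2 size factors, and 803 and 393 with the highest cell of each zone dropped per gene. Without the 6 cells of each zone with the highest rod list sums the counts were 900 and 468. With no level filter they were 865 and 440. After thinning they were 735 and 362, with 711 and 352 genes in common. CPM rescaled without opsin reads gave 669 and 414, and leaving out superior cell 24 and inferior cell 17 gave 764 and 365. Both settings were chosen after seeing the data. The log2 ratio of Opn1sw was -6.61 with averaged logs and -4.59 with the highest cells dropped. It was -4.37 without the 6 cells of each zone with the highest rod list sums. Without superior cell 24 and inferior cell 17 it was -4.66. Averaged logs gave 3.96 for Opn1mw and 2.18 for Thrb. Of 53 named genes past the rule, 52 kept their sign under 7 settings. Bbs9 turned to -0.61 without the 6 cells of each zone with the highest rod list sums, and the cause was not tested. The pseudocount and averaged logs could not turn the sign of a gene past the rule. Rescaling, by size factors or without opsin reads, moved ratios too little to do so. Only the settings that left out cells could therefore have turned a sign.

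In the 4 other collections, averaged logs called 5 higher and 2 lower genes and DESeq2 125 and 116. Opn1mw turned to -0.17 without P60 and to -0.033 without 2m, and the P21 difference of Vax2 against the others turned to -0.49 without P8. No paired analysis was possible because the numbers in the labels name single cells, and cells of the superior and inferior groups that share a number are not stated to share an animal.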
